A study of Homo sapiens with 12 samples.

Results

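The 41 genes described here encode the machinery that copies DNA and the regulators that open S phase, and they were followed in 12 RNA-seq libraries of 2 pancreatic cancer cell lines treated with a MEK inhibitor. They were taken by symbol from a list written for this work. Each Ensembl identifier of the deposited count table was given its current gene symbol, or its GENCODE 29 symbol where there was none. All 41 listed symbols matched exactly 1 of 58735 identifiers. The lines are KP4 and MiaPaca2, both established from human pancreatic ductal adenocarcinoma, and the labels name no clone, edit or transgene. Both were grown in DMEM with serum and antibiotics and were given either the solvent DMSO or 100 nM trametinib for 48 h, which makes 4 groups of 3 libraries each, a DMSO and a trametinib group for either line. Trametinib blocks the kinases MEK1 and MEK2, which relay the signal of growth factor receptors to ERK. The labels do not say whether the 3 libraries of a group came from separate cultures, so every p-value refers to the variation among these particular libraries, part or all of which may be technical.

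Before each S phase, the origin recognition complex (ORC1 to ORC6) together with CDC6 and CDT1 loads the ring of MCM2 to MCM7 onto DNA, a step called licensing. At the start of S phase CDC45 and the 4 GINS proteins join the ring and turn it into the active helicase, MCM10 helps to activate it, the polymerase alpha-primase complex lays down primers, and polymerases delta and epsilon extend them behind the sliding clamp PCNA, which the RFC complex loads. FEN1 and LIG1 finish the lagging strand, RPA covers single-stranded DNA and CLSPN carries the checkpoint signal at stalled forks. Entry into this programme is gated by the retinoblastoma protein, which restrains E2F transcription factors until cyclin D and cyclin E kinases phosphorylate it, and cyclin D1 is a well known output of ERK signalling.

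E2F factors bind short words in the promoters of many such genes, so the promoters were read first. RefSeq start-site windows (GRCh38.p14, 250 bases before the start to 50 after it) were found for 33 of the 41 genes. The words TTCCCGC or TTCGCGC or TTGCCGC or TTGGCGC, each searched on both strands, were present in 26 of these 33 windows (78.8%), against 13.1% of the 27305 genes of the table and 20.5% of the 11591 tested genes that have a window, 1 window per gene. At least 2 positions were present in 13 of 33 windows (39.4%), against 3.08% of the tested genes. The share was lower in related genes outside the 41, listed for comparison below. A word was present in 14 of 44 windows of other replication genes (31.8%) and 10 of 31 of other G1/S regulators (32.3%). At least 2 positions were present in 11.4% and 16.1% of these windows. All 26 windows with a match had one between 100 bases before the start and the window's end. The 26 windows held 45 positions, of which 36 lay in that stretch. MCM10, ORC6, CDC45, POLD1, FEN1, CCNE1 and TK1 had no such word in the window. Where a gene has several windows, as 6 of the 33 do, the first listed was read; in any window, 27 genes held a word, TK1 being added. A match is only a run of letters, and no binding was measured.

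The matches of 5 genes are shown first (PRIM1, UHRF1, MCM3, PCNA and RFC3), those with the largest mean fall among the genes described library by library whose window holds an E2F word, and then those of MCM2, MCM6 and MCM7, the further ring subunits with a match, so that their surroundings can be compared. Each is written on the strand that reads TT first, with 10 bases on either side and the E2F word in capitals. The number before each is the first base of the match along the gene's strand, counted from the RefSeq start with no base 0. The build is GRCh38.p14, and coordinates and the strand of the written sequence are in brackets. Matches closer together than the stretch shown, or too near the window's edge, were left out.
PRIM1 at -24 (chr12:56752331-56752357, minus strand): ggccgtgctgTTCCCGCcaattcctgt
UHRF1 at -104 (chr19:4909387-4909413, plus strand): tctttctcgcTTCCCGCcactgcgtcg
UHRF1 at -14 (chr19:4909477-4909503, minus strand): tctgatttttTTCCCGCgaaaactcgg
MCM3 at -173 (chr6:52284899-52284925, minus strand): gatggtacgtTTCCCGCcaccgcgggg
MCM3 at -23 (chr6:52284749-52284775, plus strand): ttccgaactcTTCCCGCcaccaaaggt
PCNA at -59 (chr20:5126665-5126691, plus strand): cgcacgccttTTCCCGCccctgacgct
RFC3 at -55 (chr13:33818084-33818110, minus strand): gagacaagttTTCCCGCgagctccaaa
MCM2 at 4 (chr3:127598404-127598430, plus strand): tgaaccacttTTCGCGCgaaacctggt
MCM6 at -151 (chr2:135876578-135876604, minus strand): ggctttgcatTTGGCGCgaaatccctt
MCM6 at -89 (chr2:135876516-135876542, minus strand): ttggtcaggtTTGGCGCgaaatctcca
MCM7 at -187 (chr7:100101568-100101594, plus strand): ggcgccgggtTTCCCGCggtccgagct
MCM7 at -8 (chr7:100101389-100101415, minus strand): ggggcgacgtTTCGCGCcaatttcggt
The 3 words most often found were TTCCCGC (18 positions in 14 genes), TTGGCGC (15 positions in 11) and TTCGCGC (11 positions in 8), while TTGCCGC occurred at 1 position. Longer stretches outside any GENCODE exon are shown for UHRF1, chr19:4909251-4909429 (plus strand), MCM3, chr6:52284882-52284992 (minus strand), and PCNA, chr20:5126627-5126785 (minus strand), each of which holds 1 E2F word, again in capitals (in PCNA it lies on the other strand and is printed as its reverse complement), and for CDC45, chr22:19479670-19479737 (plus strand), which holds none in any of its windows.
UHRF1: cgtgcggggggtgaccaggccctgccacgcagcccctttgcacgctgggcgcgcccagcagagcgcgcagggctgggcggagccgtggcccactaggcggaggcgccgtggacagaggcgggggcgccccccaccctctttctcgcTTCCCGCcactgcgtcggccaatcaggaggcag
MCM3: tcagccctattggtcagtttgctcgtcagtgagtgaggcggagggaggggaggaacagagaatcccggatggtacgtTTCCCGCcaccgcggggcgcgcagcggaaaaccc
PCNA: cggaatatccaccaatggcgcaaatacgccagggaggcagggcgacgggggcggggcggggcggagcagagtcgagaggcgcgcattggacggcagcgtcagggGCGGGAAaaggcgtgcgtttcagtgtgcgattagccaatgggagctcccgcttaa
CDC45: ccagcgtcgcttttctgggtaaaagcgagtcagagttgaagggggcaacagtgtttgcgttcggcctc
The word CCAAT, bound by NF-Y, was present in 19 of 33 windows (57.6%), against 36.4% of the tested genes. The words TTTGAA and TTCGAA, the usual forms of the cell cycle homology region of mitotic promoters, were present in 1 of 33 windows (3.03%), that of MCM6, against 11.1% of the tested genes and 23 of 30 windows (76.7%) of a list of mitosis and G2/M genes. Among the 30 mitotic windows, 6 held an E2F word (20%) and 24 a CCAAT (80%).

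Total counts ran from 20293688 to 28018129 per library, and the smallest count of any of the 41 genes in a library was 163. Levels are given as CPM, counts scaled to a common library size with TMM, and a fold change is the log2 of trametinib over DMSO with its standard error, from edgeR's quasi-likelihood fit over the 16133 genes that passed its filter on low counts. All 41 genes passed this filter. A gene was called where its Benjamini-Hochberg adjusted p over all 16133 genes was below 0.05. DUSP6 and SPRY4, feedback genes of the ERK pathway, checked the treatment labels: in KP4, DUSP6 lay at 83.5 to 88.9 CPM with DMSO and at 0.673 to 1.04 with trametinib, and in MiaPaca2, SPRY4 lay at 214 to 241 CPM with DMSO and at 3.10 to 4.06 with trametinib. MiaPaca2 DMSO replicate 2 stood apart, its counts differing from the other 2 of its group by a chi-square of 14.5 and 13.3 relative to its degrees of freedom, where those 2 differed by 7.70 and libraries of the other groups by 2.02 to 2.89. It held the lowest MiaPaca2 DMSO level of 20 of the 41 genes, and without it 40 of the 41 were still called lower in MiaPaca2. Of 8 ductal epithelial markers, 5 to 7 reached 1 CPM in each group, with KRT18 at 183 CPM in KP4 DMSO and 759 in MiaPaca2 DMSO, but the defining epithelial gene EPCAM stayed below 1 CPM in all 4 groups and CDH1 below 1 CPM in both DMSO groups. All 4 mesenchymal markers (VIM, ZEB1, CDH2 and FN1) reached 1 CPM in each group, with VIM at 3629 CPM in KP4 DMSO and 6061 in MiaPaca2 DMSO. Of 6 fibroblast markers, 3 or 4 reached 1 CPM in each group, and the 6 summed to 14.6 to 49.4 CPM per library. The acinar markers PRSS1, CPA1 and CELA3A, the T cell marker CD3E and the endothelial marker KDR had no counts. Other immune and endothelial markers were present at low levels. Mean levels across the 4 groups were 0.561 to 4.40 CPM for PTPRC (immune). For the endothelial markers VWF and CDH5 they were 0.698 to 1.69 and 0.104 to 1.47 CPM.

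After trametinib, nearly all of the 41 genes were lower in both lines, and their median fall was larger in MiaPaca2. In KP4, 39 of 41 genes were called lower and 0 higher, with a median log2 fold change of -0.47 (27.8% lower) and a range of -0.71 to -0.12. In the same comparison 24.1% of all tested genes were called lower and 23.9% higher, with a median of 0. In MiaPaca2, 40 of 41 were called lower and 0 higher, with a median of -0.83 (43.9% lower) and a range of -1.49 to -0.07, beside 29.7% of all tested genes called lower, 34.4% called higher and a median of 0.05. The genes lower in both lines numbered 39; E2F2 was not called in KP4 and POLA2 in neither line. In bulk RNA, fewer cells in S phase and less of each transcript per cell cannot be told apart.

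The 3 trametinib libraries lay below all 3 DMSO libraries for 41 of 41 genes in KP4 and for 40 of 41 in MiaPaca2, the exception being POLA2. Of all tested genes, 30.5% in KP4 and 29.8% in MiaPaca2 separated in this way. Summed over the 41 genes, the level fell from 5030 ± 57.8 CPM (SD, n = 3) to 3658 ± 33.7 in KP4 and from 5699 ± 185 to 2997 ± 35.4 in MiaPaca2. The sum was thus higher in MiaPaca2 than in KP4 in DMSO and lower in trametinib. The spread within groups was small beside these shifts: the median coefficient of variation of a gene was 2.27% (DMSO) and 3.65% (trametinib) in KP4, and 5.41% and 4.39% in MiaPaca2.

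**Figure D1:**
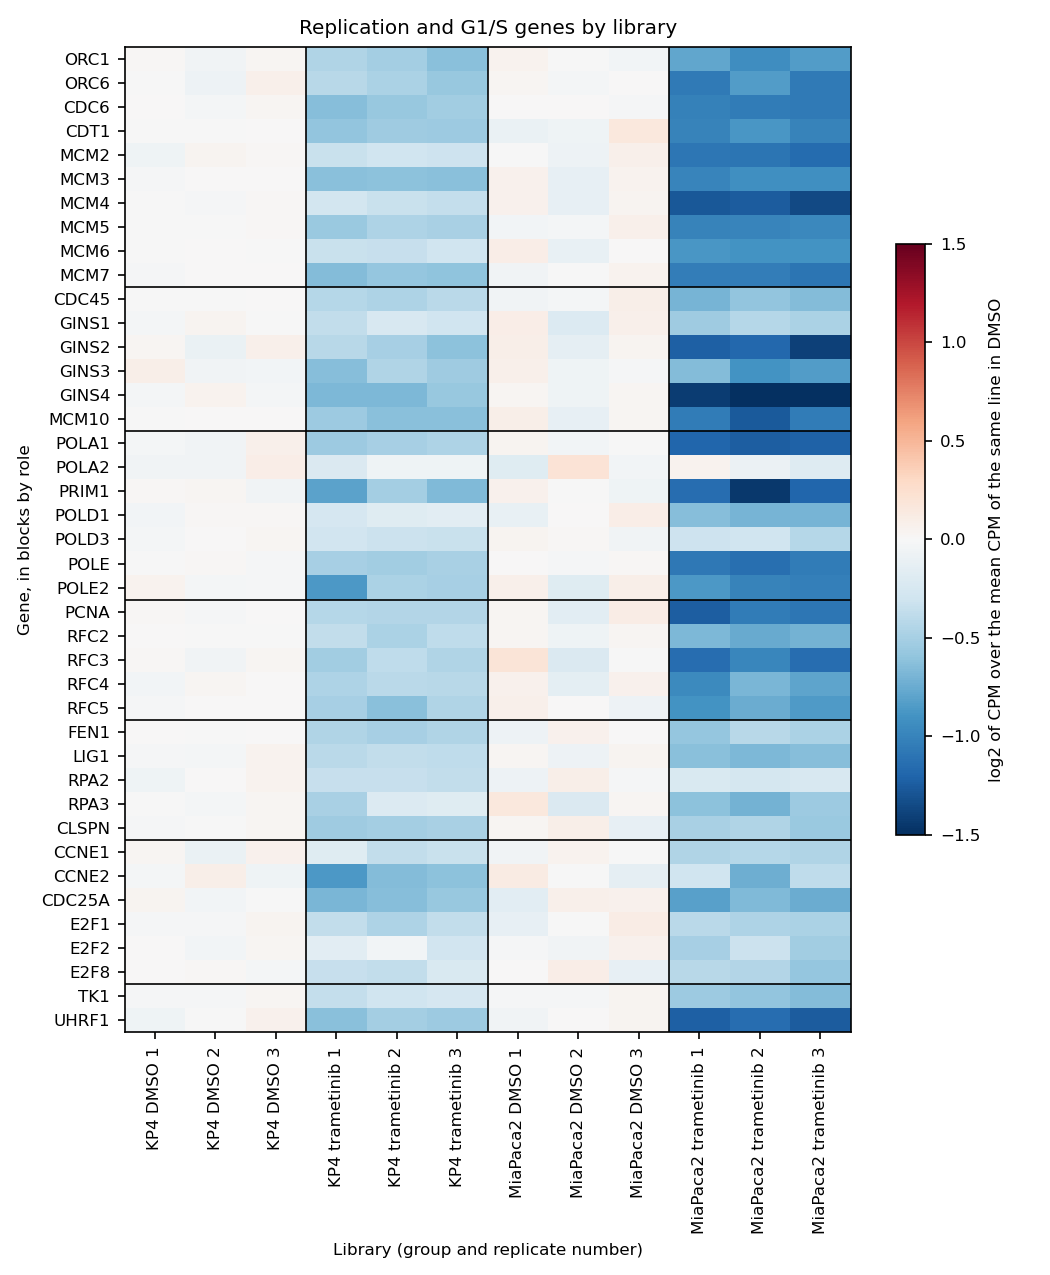
Each row is 1 of the 41 genes, in blocks by role from licensing (top) to the outputs TK1 and UHRF1, and each column is 1 library; colour gives the log2 of the CPM over the mean of the same line in DMSO. The KP4 trametinib columns are light blue (median log2 fold change -0.47) and the MiaPaca2 trametinib columns darker (median -0.83), with GINS4 darkest and POLA2 near white.

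The licensing genes fell together. All 10 were called lower in each line, with medians of -0.51 in KP4 and -0.99 in MiaPaca2, and for all 10 the fall was larger in MiaPaca2 by the test of the difference. MCM4, a core subunit of the helicase ring, showed the largest gap between the lines of all 41 genes. It lay at 261, 260.1 and 267 CPM in the KP4 DMSO libraries, against 218, 208 and 204 under trametinib, and at 498, 436 and 489 CPM in the DMSO libraries of MiaPaca2, against 197, 201 and 186 under trametinib. In both lines the groups were separate: MCM4 changed by -0.32 ± 0.045 in KP4 and by -1.29 ± 0.046 (59.0% lower) in MiaPaca2, a difference of 0.97 ± 0.064 (adjusted p = 7.69e-12). The MiaPaca2 level started well above that of KP4 and ended just below it.

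MCM2 (ENSG00000073111, chr3:127598223-127622436, plus strand, GRCh38), which binds histones and takes part in the same ring, also fell far more in MiaPaca2. Its levels were 387, 418 and 410.0 CPM in the KP4 DMSO libraries, against 321, 329 and 327 under trametinib. MiaPaca2 showed 543, 517 and 576 CPM in DMSO and 258, 256 and 246 in trametinib. The order of the lines was turned, with MiaPaca2 highest in DMSO and lowest in trametinib, and the changes were -0.31 ± 0.041 in KP4 and -1.11 ± 0.041 in MiaPaca2. An unnamed antisense gene covers 22.7% of the exons of MCM2, and since the use of strand in counting is not given in the sources used here, reads of the pair cannot be told apart; that gene was listed at 1.97, 1.89, 3.21 and 1.47 CPM on average in the 4 groups.

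MCM3, another ring subunit, had the most negative change of the licensing genes in KP4. It lay at 332, 338 and 338 CPM in the KP4 DMSO libraries, against 218, 219 and 217 under trametinib, which is 35.1% lower (-0.62 ± 0.043, adjusted p = 4.23e-12). The fall in MiaPaca2 was larger but closer to that of KP4: 398, 349 and 394 CPM in the DMSO libraries of MiaPaca2, against 192, 201 and 201 under trametinib, or -0.94 ± 0.043. The other ring subunits were MCM5 (-0.50 in KP4 and -0.99 in MiaPaca2), MCM6 (-0.33 and -0.89) and MCM7 (-0.61 and -1.06). For MCM2 to MCM7 together the median log2 fold change was -0.41 in KP4 and -1.02 in MiaPaca2.

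The 6 ring subunits sit in the complex in equal numbers, but their transcript levels were not equal. Per kilobase of exon, MCM7 was the most abundant of the 6 in every group, at 178 CPM per kb (DMSO) and 116 (trametinib) in KP4, and 181 and 86.9 in MiaPaca2. MCM5 was the least abundant, at 31.2, 22.1, 36.3 and 18.3 CPM per kb in the same order. The ratio of the highest to the lowest was 5.70, 5.26, 4.98 and 4.76, so MCM7 and MCM5 kept their places under treatment. With the longest annotated transcript as the length the ratios were 5.08, 4.69, 4.44 and 4.24.

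**Figure D2:**
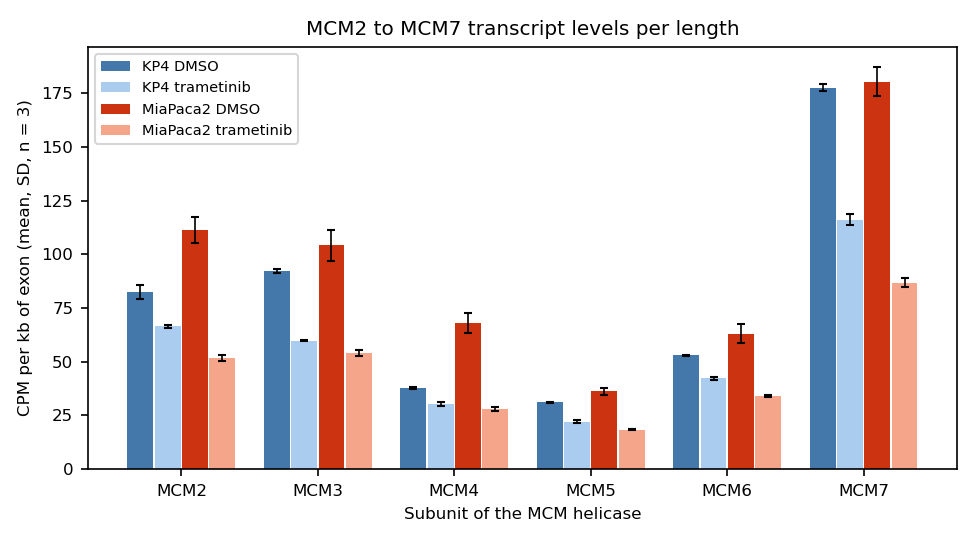
Bars give the mean CPM per kilobase of exon of MCM2 to MCM7 in the 4 groups, with the SD over 3 libraries. MCM7 is highest in every group (178, 116, 181 and 86.9 CPM per kb) and MCM5 lowest, and each subunit's MiaPaca2 trametinib bar is the lowest of its set.

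Among the loaders, ORC1, the ATPase subunit of the origin recognition complex that is present mainly in G1, fell least of the licensing genes in MiaPaca2. It lay at 53.7, 51.0 and 54.2 CPM in the KP4 DMSO libraries, against 38.9, 37.3 and 34.3 under trametinib, and at 58.6, 56.6 and 55.0 CPM in the DMSO libraries of MiaPaca2, against 33.1, 29.7 and 31.7 under trametinib. These are falls of 30.5% and 44.4%, with a difference between lines of 0.32 ± 0.088 (adjusted p = 0.00559). ORC6 changed by -0.48 in KP4 and -0.99 in MiaPaca2, CDC6 by -0.57 and -1.04, and CDT1, the licensing factor that is destroyed at the onset of S phase, by -0.56 and -0.96.

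The genes that turn the loaded ring into a moving helicase were all called lower in both lines, with medians of -0.52 in KP4 and -0.95 in MiaPaca2 over 6 genes. GINS4, 1 of the 4 subunits of the GINS complex, had the most negative change of all 41 genes in MiaPaca2. Its levels were 39.1, 41.4 and 38.8 CPM in the KP4 DMSO libraries, against 25.0, 25.0 and 26.8 under trametinib. In MiaPaca2 they were 62.2, 58.1 and 62.0 CPM in DMSO and 22.6, 21.6 and 20.7 in trametinib, a drop of 64.4% (-1.49 ± 0.065, adjusted p = 1.32e-16), against 35.7% in KP4 (-0.64 ± 0.064). The DMSO libraries of MiaPaca2 lay above all of KP4, and the trametinib libraries below all of KP4. GINS1, its partner in the same complex, fell least: 47.2, 49.6 and 47.9 CPM in the KP4 DMSO libraries, against 37.4, 40.8 and 39.3 under trametinib, and 61.6, 49.8 and 60.7 CPM in the DMSO libraries of MiaPaca2, against 39.5, 42.7 and 41.4 under trametinib, or -0.30 ± 0.069 and -0.48 ± 0.070. The other GINS subunits lay between in MiaPaca2, where GINS2 changed by -1.26 and GINS3 by -0.78 (in KP4 -0.50 and -0.54).

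CDC45, the helicase cofactor that joins with GINS, lay at 78.0, 77.9 and 78.7 CPM in the KP4 DMSO libraries, against 58.1, 56.5 and 59.0 under trametinib, and at 63.8, 65.0 and 70.3 CPM in the DMSO libraries of MiaPaca2, against 40.8, 44.1 and 42.4 under trametinib. It was higher in KP4 than in MiaPaca2 under both treatments, with no overlap of libraries. Its fall was -0.43 ± 0.051 in KP4 and -0.65 ± 0.056 in MiaPaca2, and the difference of 0.21 ± 0.076 passed the threshold narrowly (adjusted p = 0.0316). Leaving out 1 library at a time took that call away in 7 of 12 cases, each of KP4 DMSO 1 to 3, KP4 trametinib 3, MiaPaca2 DMSO 3 and MiaPaca2 trametinib 1 and 3, with an adjusted p of up to 0.0956. MCM10 changed by -0.60 in KP4 and -1.11 in MiaPaca2.

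Of the 7 polymerase and primase genes, 6 were called lower in each line, with medians of -0.50 and -0.96. PRIM1 (ENSG00000198056, chr12:56731596-56752373, minus strand), the catalytic subunit of primase that starts every new strand with RNA, fell most: 23.0, 23.2 and 21.9 CPM in the KP4 DMSO libraries, against 13.0, 16.0 and 14.4 under trametinib. MiaPaca2 started from 23.8, 22.5 and 21.7 CPM in DMSO, and dropped to 10.3, 8.34 and 9.95 in trametinib. The falls were 36.4% (-0.65 ± 0.087) and 57.7% (-1.24 ± 0.099), so that PRIM1 did not differ detectably between lines in DMSO (0.00 ± 0.083, adjusted p = 0.999) and was higher in KP4 in trametinib (0.59 ± 0.10, adjusted p = 3.06e-05).

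POLA2 (ENSG00000014138, chr11:65261762-65305589, plus strand), the regulatory B subunit of the same polymerase alpha-primase complex, was the exception among the 41. It lay at 9.66, 9.71 and 10.8 CPM in the KP4 DMSO libraries, against 8.68, 9.60 and 9.61 under trametinib, and at 7.55, 9.84 and 8.29 CPM in the DMSO libraries of MiaPaca2, against 8.85, 8.05 and 7.47 under trametinib. The MiaPaca2 groups overlapped and the KP4 groups nearly touched, with changes of -0.12 ± 0.11 (adjusted p = 0.414) and -0.07 ± 0.13 (adjusted p = 0.628). Without MiaPaca2 DMSO replicate 2 the MiaPaca2 value was 0.04 (adjusted p = 0.827). POLA2 was also the least abundant of the 41 per kilobase of exon in every group (1.76 CPM per kb in KP4 DMSO), and 35.1% of its exon bases are shared with an unnamed gene on the same strand, itself at 0.348 CPM or less in each group; how reads in such shared exons were counted is not given in the sources used here, and the part of this in the POLA2 values was not tested.

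The remaining polymerase genes fell in both lines. POLA1, the catalytic subunit of polymerase alpha, changed by -0.50 in KP4 and -1.21 in MiaPaca2, and POLE, that of the leading-strand polymerase epsilon, by -0.50 and -1.08. POLD1, the catalytic subunit of polymerase delta, changed less in KP4 (-0.20, adjusted p = 0.00201) than in MiaPaca2 (-0.68; difference 0.48 ± 0.072, adjusted p = 7.69e-06). Its accessory subunit POLD3 changed by -0.31 and -0.35, and POLE2, an accessory subunit of polymerase epsilon, by -0.60 and -0.96. Neither differed between lines by the test, but for POLE2 (adjusted p = 0.0601) this depended on the settings, as given below.

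The clamp and its loader were called lower in all 5 cases in each line, with medians of -0.44 and -0.83, and all 5 fell more in MiaPaca2. PCNA (ENSG00000132646, chr20:5114953-5126626, minus strand), the ring that tethers polymerases to DNA, lay at 154, 151 and 153 CPM in the KP4 DMSO libraries, against 114, 112 and 113 under trametinib. It stood at 233, 205 and 245 CPM in the DMSO libraries of MiaPaca2, against 96.8, 109.8 and 108 under trametinib. The KP4 values were tight around a 26.1% fall (-0.44 ± 0.055), while MiaPaca2 went from above to slightly below the KP4 levels, 54.1% lower (-1.12 ± 0.055). The difference between the lines was 0.69 ± 0.078 (adjusted p = 1.47e-07).

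RFC3 (ENSG00000133119, chr13:33818049-33966558, plus strand), a small subunit of the clamp loader, showed the largest difference between the lines in DMSO. It lay at 33.0, 31.6 and 33.5 CPM in the KP4 DMSO libraries, against 22.8, 25.1 and 23.8 under trametinib, and at 77.7, 58.5 and 67.9 CPM in the DMSO libraries of MiaPaca2, against 30.9, 34.5 and 30.9 under trametinib. All MiaPaca2 DMSO libraries were above all KP4 libraries, and MiaPaca2 trametinib stayed near the KP4 DMSO level; the falls were -0.45 ± 0.089 and -1.09 ± 0.081. RFC2 fell least of this set: 116, 114 and 115 CPM in the KP4 DMSO libraries, against 89.3, 83.0 and 88.3 under trametinib, and 147, 137 and 146 CPM in the DMSO libraries of MiaPaca2, against 89.7, 84.6 and 87.7 under trametinib, or -0.41 ± 0.046 and -0.71 ± 0.047. Between the lines RFC2 did not differ by the test under trametinib (-0.01 ± 0.048, adjusted p = 0.894). RFC5 had the largest KP4 fall of the set, from 81.9, 83.3 and 83.3 CPM to 58.5, 53.7 and 60.5, and went from 84.1, 80.1 and 75.7 to 42.9, 47.6 and 44.4 in MiaPaca2 (-0.52 ± 0.055 and -0.83 ± 0.059), while RFC4 changed by -0.43 and -0.81.

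The genes of lagging-strand maturation, single-strand binding and checkpoint signalling were also lower, with medians of -0.38 in KP4 and -0.50 in MiaPaca2 over 5 genes, all called lower in each line. Only LIG1 and RPA3 of the 5 fell more in MiaPaca2 by the test of the difference. LIG1, the ligase that seals Okazaki fragments, lay at 99.5, 99.2 and 104 CPM in the KP4 DMSO libraries, against 76.5, 78.1 and 77.7 under trametinib, and at 106, 98.8 and 107 CPM in the DMSO libraries of MiaPaca2, against 67.2, 65.3 and 67.0 under trametinib. Its DMSO levels overlapped between the lines and its trametinib levels did not. The falls were -0.38 ± 0.047 and -0.65 ± 0.049 (difference 0.26 ± 0.068, adjusted p = 0.00323).

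FEN1, the nuclease that trims the flaps before ligation, showed no called difference between the responses of the lines. It lay at 183, 181 and 184 CPM in the KP4 DMSO libraries, against 133, 129 and 133 under trametinib, and at 125, 138 and 132 CPM in the DMSO libraries of MiaPaca2, against 88.1, 99.1 and 94.9 under trametinib. KP4 was above MiaPaca2 in each treatment, and the falls of 27.8% and 28.7% differed by 0.02 ± 0.066 (adjusted p = 0.881). CLSPN was also higher in KP4 in each treatment: 139.8, 140.3 and 144 CPM in the KP4 DMSO libraries, against 98.0, 99.6 and 101.2 under trametinib, and 113, 117 and 101.4 CPM in the DMSO libraries of MiaPaca2, against 78.8, 80.8 and 75.1 under trametinib. Its changes were -0.51 ± 0.049 and -0.50 ± 0.052, a difference of 0.00 ± 0.071.

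RPA2, the middle subunit of the single-strand binding complex RPA, fell least of the set in MiaPaca2. It lay at 103, 108 and 111 CPM in the KP4 DMSO libraries, against 84.8, 84.9 and 83.1 under trametinib, and at 73.6, 82.6 and 76.6 CPM in the DMSO libraries of MiaPaca2, against 66.3, 64.8 and 65.5 under trametinib. These groups did not overlap, yet the fall was only 15.5% in MiaPaca2 (-0.24 ± 0.052) against 21.7% in KP4 (-0.35 ± 0.048), and the difference of -0.11 ± 0.071 did not pass the test (adjusted p = 0.247). RPA3, the smallest subunit of RPA, showed 24.6, 24.2 and 25.3 CPM in the KP4 DMSO libraries, against 17.6, 21.4 and 21.7 under trametinib, and 34.4, 26.5 and 31.3 CPM in the DMSO libraries of MiaPaca2, against 20.1, 18.8 and 21.0 under trametinib. KP4 trametinib replicate 1 was the low library here. Without it the KP4 change of RPA3 went from -0.29 ± 0.092 (adjusted p = 0.0108) to -0.17 (adjusted p = 0.163), and the call was lost. The MiaPaca2 change was -0.62 ± 0.093, and the difference between the lines (adjusted p = 0.0493) lay at the threshold and was lost in 10 of 12 cases of leaving out 1 library (adjusted p of up to 0.142 with, at that maximum, a difference of 0.28, without KP4 trametinib replicate 3).

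The G1/S control genes were lower in both lines, with medians of -0.36 and -0.45 over 6 genes, of which 5 were called lower in KP4 and 6 in MiaPaca2. CCNE2, which encodes cyclin E2, an activator of CDK2, had the most negative change of all 41 genes in KP4. It lay at 20.5, 22.1 and 19.9 CPM in the KP4 DMSO libraries, against 11.5, 13.3 and 13.6 under trametinib, and at 17.6, 16.1 and 14.7 CPM in the DMSO libraries of MiaPaca2, against 13.1, 9.73 and 12.4 under trametinib. The KP4 groups were far apart (38.7% lower, -0.71 ± 0.098), the MiaPaca2 groups closer (26.6%, -0.45 ± 0.11), and the difference of -0.26 ± 0.15 did not pass the test (adjusted p = 0.183). INTS8 on the opposite strand overlaps 37.0% of the CCNE2 exons and was the more abundant gene of the pair in every group. Mean INTS8 levels were 51.3 CPM (DMSO) and 56.2 (trametinib) in KP4, and 55.4 and 50.1 in MiaPaca2. The changes of INTS8 were 0.13 in KP4 (adjusted p = 0.0683) and -0.14 in MiaPaca2 (adjusted p = 0.0417). Its part in the CCNE2 values was not tested.

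CCNE1, which encodes cyclin E1, lay at 29.6, 27.0 and 30.3 CPM in the KP4 DMSO libraries, against 25.5, 22.4 and 22.9 under trametinib, and at 33.3, 36.0 and 34.4 CPM in the DMSO libraries of MiaPaca2, against 25.3, 25.7 and 25.3 under trametinib. It was lower in both lines (-0.29 ± 0.072 and -0.44 ± 0.072) with no overlap between treatments. CDC25A, the phosphatase that removes inhibitory phosphates from CDK2, fell most of the set in MiaPaca2. Its levels were 44.2, 41.8 and 42.5 CPM in the KP4 DMSO libraries, against 26.6, 27.5 and 28.96 under trametinib, and 34.5, 40.6 and 40.2 CPM in the DMSO libraries of MiaPaca2, against 21.9, 24.3 and 22.9 under trametinib. The falls were 35.3% and 40.2% and did not differ by the test (0.11 ± 0.10, adjusted p = 0.424).

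The E2F factors among the 41 are the activators E2F1 and E2F2 and the repressor E2F8, itself an E2F target. E2F1 (ENSG00000101412, chr20:33675683-33686404, minus strand) changed by -0.40 ± 0.052 in KP4 and -0.45 ± 0.056 in MiaPaca2. E2F2 lay at 34.2, 33.2 and 34.9 CPM in the KP4 DMSO libraries, against 30.6, 33.0 and 27.9 under trametinib, and at 36.1, 35.2 and 38.2 CPM in the DMSO libraries of MiaPaca2, against 25.8, 29.3 and 25.5 under trametinib. The KP4 groups lay close to each other without overlap (-0.16 ± 0.071, adjusted p = 0.0659), whereas MiaPaca2 was called lower (-0.45 ± 0.074); without KP4 trametinib replicate 2 the KP4 change was -0.22 (adjusted p = 0.0268). The difference between the lines (0.29 ± 0.10, adjusted p = 0.0303) was lost in 6 of 12 cases of leaving out 1 library, with an adjusted p of 0.110 at most, again without KP4 trametinib replicate 2. E2F8 showed 45.2, 45.4 and 43.9 CPM in the KP4 DMSO libraries, against 35.2, 34.6 and 38.3 under trametinib, and 31.6, 33.8 and 28.9 CPM in the DMSO libraries of MiaPaca2, against 23.6, 23.2 and 21.1 under trametinib. Every KP4 library was above every MiaPaca2 library, and the falls were -0.32 ± 0.065 and -0.48 ± 0.076.

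TK1 and UHRF1 are textbook S-phase outputs of E2F. TK1, thymidine kinase of the nucleotide salvage pathway, lay at 203, 203 and 210.0 CPM in the KP4 DMSO libraries, against 160.5, 167 and 172 under trametinib, and at 180.2, 181 and 188 CPM in the DMSO libraries of MiaPaca2, against 125, 121 and 116 under trametinib. The groups did not overlap, and the changes were -0.30 ± 0.041 and -0.60 ± 0.043. UHRF1 (ENSG00000276043, chr19:4903080-4962154, plus strand), which guides DNA methylation to newly copied DNA, fell more: 187, 196 and 205 CPM in the KP4 DMSO libraries, against 127, 138 and 135 under trametinib, and 210.1, 218 and 225 CPM in the DMSO libraries of MiaPaca2, against 92.9, 98.4 and 91.7 under trametinib. Its changes of -0.56 ± 0.045 and -1.21 ± 0.047 were among the larger ones in each line, and both genes fell more in MiaPaca2 (differences 0.30 ± 0.059 and 0.65 ± 0.065).

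**Figure D3:**
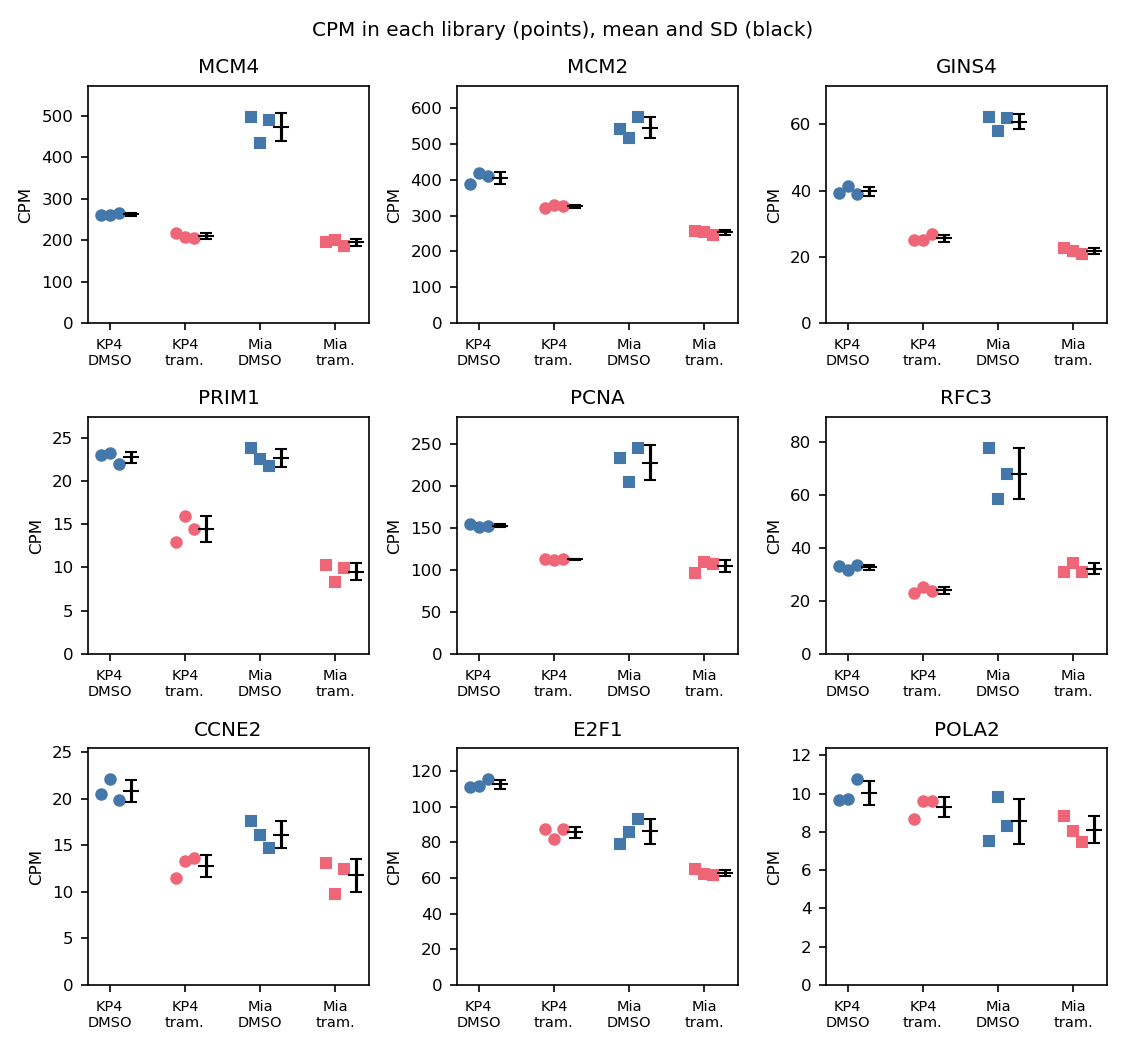
CPM of 9 genes in each library (points; circles KP4, squares MiaPaca2, blue DMSO, red trametinib), with the mean and SD of the 3 libraries in black and axes from 0. MCM4, MCM2, GINS4, PCNA and RFC3 start higher in MiaPaca2 and drop further, E2F1 and CCNE2 start higher in KP4, and POLA2 shows no separation of the MiaPaca2 groups.

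The 2 lines were then compared in how far they fell. The change was more negative in MiaPaca2 for 37 of 41 genes, and the difference of the responses passed the test in this direction for 28 and in the other for 0, with a median of 0.33. Over all tested genes, 16.0% had a difference in this direction and 19.7% in the other, with a median of -0.05. The 13 genes with no called difference were GINS1, GINS3, POLA2, POLD3, POLE2, FEN1, RPA2, CCNE1, CCNE2, CDC25A, E2F1, E2F8 and CLSPN. By role, the difference was called for 10 of 10 licensing genes, 5 of 5 of the clamp and loader, 4 of 6 of helicase activation, 4 of 7 polymerase genes, 2 of 5 of lagging strand, single-strand binding and checkpoint, 1 of 6 of G1/S control and both outputs. Without MiaPaca2 DMSO replicate 2 the count was 31, with GINS1, GINS3 and POLE2 added. GINS3 and POLE2 were also called with RLE scaling (adjusted p = 0.0443 and 0.0347) and with DESeq2 (0.0446 and 0.0336). With no filter, POLE2 was called too (0.0483).

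The size of the fall varied more among the 41 genes in MiaPaca2 (SD of the log2 fold changes 0.327) than in KP4 (0.142). The median ratio of the MiaPaca2 to the KP4 log2 fold change was 1.76. Across the 41 genes the log2 fold changes of the lines had a Pearson r of 0.548 and a Spearman rho of 0.516, which describes genes that share libraries and is not a test. By the promoter reading, the 26 genes with an E2F word had a median of -0.50 in KP4 and -0.92 in MiaPaca2. The 7 without one in the window read -0.43 and -0.65. Their ranges in MiaPaca2 were -1.26 to -0.07 and -1.11 to -0.44 and so overlapped. The 8 genes for which no window was found had medians of -0.34 and -0.55, with a MiaPaca2 range of -1.49 to -0.24. This contrast was not tested.

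**Figure D4:**
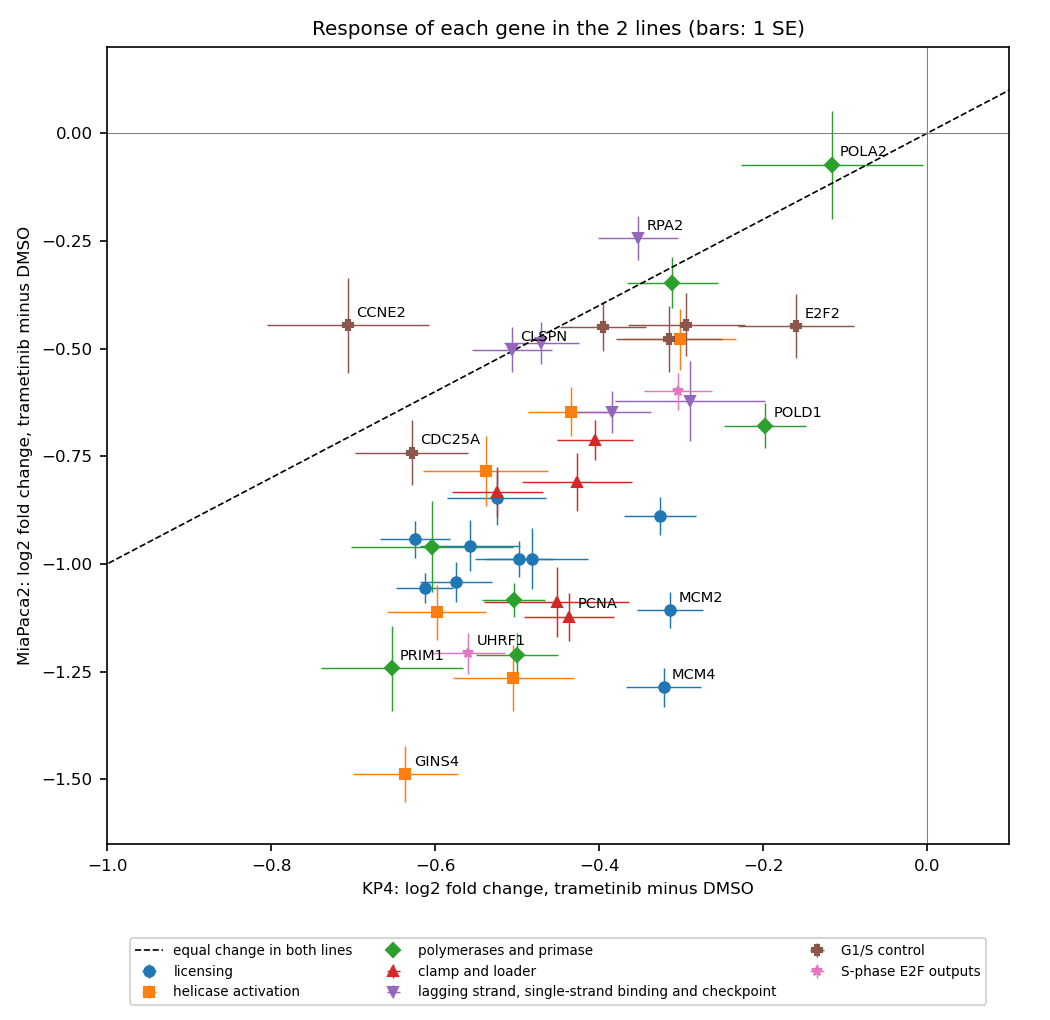
Each point is 1 gene, with its log2 fold change in KP4 on the horizontal and in MiaPaca2 on the vertical axis, bars of 1 SE and a dashed line of equal change. Of the 41 points 37 lie below the line, MCM4 and GINS4 farthest down, and G1/S control genes such as CCNE2 and E2F2 lie near or on either side of it.

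Levels were also compared between the lines within each treatment. In DMSO, 20 of the 41 genes were lower in KP4 than in MiaPaca2, 10 were higher and 11 were not called, beside 31.2% and 32.0% of all tested genes called lower and higher. The lowest relative to MiaPaca2 were RFC3 (-1.06 ± 0.079), MCM4 (-0.85 ± 0.045) and GINS4 (-0.61 ± 0.058). The highest were E2F8 (0.51 ± 0.068), FEN1 (0.47 ± 0.046) and RPA2 (0.47 ± 0.049). The other genes called higher in KP4 were CDC45, POLD3, CCNE2, CDC25A, E2F1, TK1 and CLSPN. The CDC25A difference (0.16, adjusted p = 0.0432) went to 0.085 (adjusted p = 0.264) without MiaPaca2 DMSO replicate 1. Its call was also lost without any 1 of the KP4 DMSO libraries. It was lost as well with RLE scaling (adjusted p = 0.102), DESeq2 (0.135) and no filter (0.0573). The same held for the older quasi-likelihood method (0.0526) and only the libraries compared (0.147). The POLD3 call was lost with only the libraries compared (0.0521). Without MiaPaca2 DMSO replicate 2, 21 genes were called lower and 11 higher.

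Under trametinib more of the genes were higher in KP4. Of the 41 genes, 28 were higher in KP4 than in MiaPaca2, 1 was lower and 12 were not called, beside 26.5% and 29.8% of all tested genes called higher and lower. Of the 20 genes lower in KP4 in DMSO, 11 were called higher in KP4 under trametinib (MCM2 to MCM6, GINS2, GINS4, POLA1, POLD1, POLE and UHRF1), 8 were not called and RFC3 was still lower (-0.42 ± 0.091, adjusted p = 0.000376). The UHRF1 call in DMSO was lost without KP4 DMSO replicate 1 (-0.11, adjusted p = 0.0529). Under trametinib, E2F8 (0.67 ± 0.073), PRIM1 (0.59 ± 0.10) and CDC6 (0.50 ± 0.047) were the highest relative to MiaPaca2. The 6 genes of the MCM ring were all called higher in KP4 under trametinib (median 0.29), although the calls of MCM3 and MCM4 did not hold in every alternative, whereas in DMSO 5 of the 6 were lower and MCM7 was not called (-0.02 ± 0.034). For MCM4 the trametinib difference (0.11 ± 0.046, adjusted p = 0.0416) sat at the threshold, and its call was lost without KP4 trametinib replicate 2 (adjusted p = 0.0671), MiaPaca2 trametinib replicate 1 (0.0660) or 3 (0.196), with the strict filter (0.0615), with limma-voom (0.0568) and with a replicate block (0.0627). The MCM3 call was lost without MiaPaca2 trametinib replicate 1 (0.12, adjusted p = 0.0531). For E2F2 (0.19 ± 0.075, adjusted p = 0.0325) the trametinib libraries of the lines overlapped. Its call was lost with a replicate block (adjusted p = 0.0542). It was also lost without KP4 trametinib replicate 2 (0.18), MiaPaca2 trametinib replicate 1 (0.118) or 3 (0.135).

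**Figure D5:**
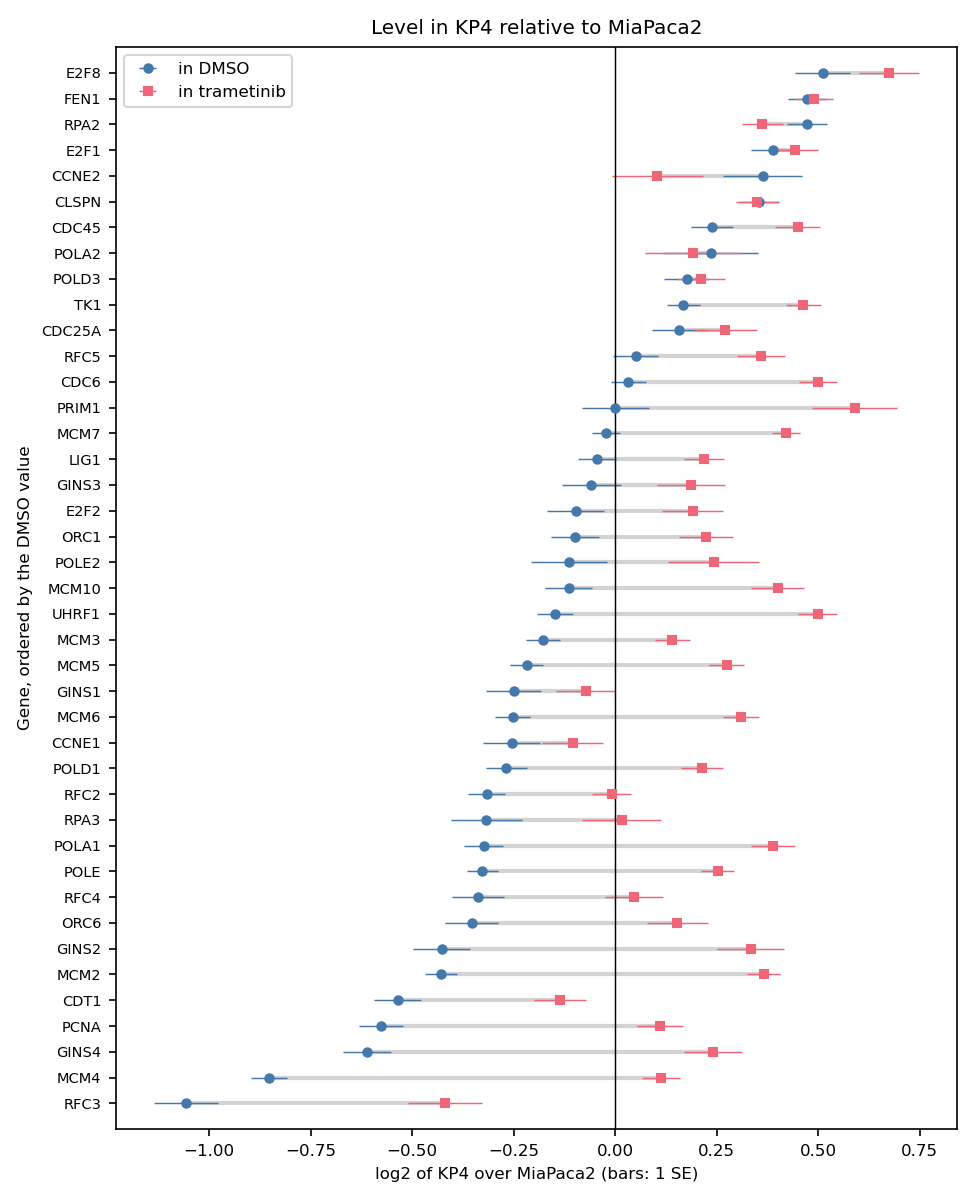
For each gene, the log2 of its level in KP4 over MiaPaca2 is shown in DMSO (blue circles) and in trametinib (red squares), with bars of 1 SE and a grey bar joining them. Most genes move to the right, across 0 for the MCM genes, while FEN1, E2F1, CLSPN and POLD3 stay in place and RFC3 remains left of 0.

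Genes around the 41 were read from 3 lists written for comparison. From each, the genes with the most negative and the least negative or most positive called change in each line are named; CHAF1A, ATR, CDKN1A, CDKN1B, E2F4, E2F5, E2F7, TFDP1, TFDP2, RBL2, MYBL2 and PLK1 were added after their values were seen. Of 51 other replication genes, 38 were called lower and 0 higher in KP4 (median -0.36), and 44 lower and 0 higher in MiaPaca2 (median -0.59). Among these 51, the difference of the responses was called with a more negative change in MiaPaca2 for 24 and in KP4 for 3. Over all tested genes those shares were 16.0% and 19.7%. TOP1, which relaxes supercoils ahead of the fork, changed by -0.83 ± 0.043 and -1.32 ± 0.042. CHAF1A, a chaperone that deposits histones on new DNA, changed by -0.60 ± 0.047 and -0.78 ± 0.048. TOP2A, the topoisomerase of G2 and mitosis, changed little in KP4 (-0.14 ± 0.051) and much in MiaPaca2 (-1.05 ± 0.052), a difference of 0.90 ± 0.072. TIMELESS, which protects the fork, changed by -0.09 ± 0.043 in KP4 and -0.12 ± 0.045 in MiaPaca2, the least negative called value there. The most negative MiaPaca2 value was that of RNASEH2A, a subunit of the ribonuclease that removes RNA from DNA (-1.53 ± 0.47, adjusted p = 0.00580), at a level of only 1.05 ± 0.251 CPM (SD, n = 3) in DMSO and 0.371 ± 0.220 in trametinib. ATR, the kinase that senses stalled forks, was not called in either line (-0.01 ± 0.043 and -0.07 ± 0.045).

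Of 36 regulators of G1/S outside the 41, 34 were tested, 19 lower and 5 higher in KP4 (median -0.22), and 20 lower and 5 higher in MiaPaca2 (median -0.23). CCND1, which encodes cyclin D1, fell from 453 ± 6.06 to 147 ± 5.23 CPM in KP4 (SD, n = 3; -1.63 ± 0.047) and from 302 ± 24.4 to 203 ± 5.24 in MiaPaca2 (-0.58 ± 0.046). Cyclin D1 thus fell more in KP4 (-1.05 ± 0.065), opposite to most of the 41 genes. CDKN1B, which encodes the CDK inhibitor p27, rose in both lines (0.91 ± 0.056 and 0.76 ± 0.054), as did CDKN2C, the gene of the CDK4 and CDK6 inhibitor p18 (0.45 ± 0.059 and 1.19 ± 0.060). CDKN1C, the gene of the related inhibitor p57, rose in KP4 from a low level, 0.772 ± 0.471 to 1.91 ± 0.435 CPM (1.28 ± 0.37, adjusted p = 0.00704). CDKN1A, the gene of the CDK inhibitor p21, fell in KP4 (-0.52 ± 0.11) and rose in MiaPaca2 (0.96 ± 0.14), a difference of -1.47 ± 0.18. CDKN2A and CDKN2B had 0 counts in all 12 libraries and were not tested.

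Other E2F factors and their partners did not all move one way. E2F4, the main repressor of quiescent cells, changed by -0.51 ± 0.053 in KP4 and -0.90 ± 0.054 in MiaPaca2, and TFDP1, a dimer partner of E2F factors, by -0.38 ± 0.044 and -0.81 ± 0.044. TFDP2, the other dimer partner, rose in both lines (0.25 ± 0.054 and 0.23 ± 0.056). E2F5 (0.06 ± 0.14 and 0.11 ± 0.15) and RBL2, a relative of the retinoblastoma protein (0.10 ± 0.057 and -0.03 ± 0.057), were called in neither line. E2F7, a repressor like E2F8, changed by -0.74 ± 0.063 and -0.19 ± 0.078. MYBL2, which joins the MuvB complex to switch on mitotic genes, was not called in KP4 (-0.08 ± 0.052, adjusted p = 0.241) and fell in MiaPaca2 (-1.30 ± 0.051), with a difference of 1.22 ± 0.073. Its mean MiaPaca2 level went from 495 CPM to 202, beside 169.7 and 161 in KP4. CDCA7, an E2F and MYC target, changed by -0.61 ± 0.063 and -1.71 ± 0.058.

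Genes of mitosis and G2/M, which act after replication, were read beside them. Of 36, 32 were called lower and 1 higher in KP4 (median -0.27), and 35 lower and 0 higher in MiaPaca2 (median -0.78). The 41 genes fell further in KP4 by their median (-0.47) and had a median of -0.83 in MiaPaca2. This contrast between lists was not tested. The difference of the responses was called for 32 of the 36, all larger in MiaPaca2. UBE2C, the ubiquitin-conjugating enzyme of the anaphase-promoting complex, changed by -0.88 ± 0.044 and -1.12 ± 0.046, PLK1 by -0.36 ± 0.047 and -1.35 ± 0.048, and NUF2, a kinetochore subunit, by -0.40 ± 0.068 and -1.36 ± 0.071. KIF20A, a kinesin of cytokinesis, rose in KP4 (0.19 ± 0.038) and fell in MiaPaca2 (-0.22 ± 0.039).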

How the data were processed

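Polyadenylated RNA was read from 12 libraries made with the Tecan Universal mRNA Plus kit, per the labels' protocols. The authors deposited 1 table of raw read counts per gene, with no normalization; STAR, DESeq2 and GRCh38 (hg38) are named in the submitters' processing notes, and the counting program, annotation, use of strand and treatment of multi-mapped reads are stated in none of the sources used here, so genes with pseudogene copies, such as PCNA, are less certain. Samples were grouped by their labels. The members and lists were chosen with earlier results of these data known.

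All 58735 identifiers matched GENCODE 29. Counts were fitted with edgeR 4.0.16 (R 4.3.3, limma 3.58.1) by the quasi-likelihood test, with 1 mean per group over 12 libraries. The settings were TMM scaling, filterByExpr with a minimum count of 10 (16133 genes), robust shrinkage and Benjamini-Hochberg adjustment over all genes. The fit was checked on simulated counts for the KP4 comparison of trametinib with DMSO only. Total counts ran from 20293688 to 28018129. CPM per kb uses the union of GENCODE exons. Values per library are given for the members with the most and least negative change of each role and line, those not past the test, and the 3 largest and smallest differences between lines (in response and in DMSO level) past the test. Of the promoter stretches, bases in GENCODE exons were left out except within 10 bases of an E2F word. Alternatives were other scaling (RLE, library size), filters (none, a minimum count of 50), DESeq2 1.42.0, limma-voom, no robust shrinkage, the older quasi-likelihood method (added after seeing the data), only the libraries compared, a replicate block and leaving out each library.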

Additional observations from a re-analysis of the deposited data

Results flagged for a closer look

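The response to trametinib differed between the 2 lines by the test of the difference itself for 28 of the 41 genes, in each case with a larger fall in MiaPaca2. The values are the KP4 minus the MiaPaca2 log2 fold change. Among the licensing genes they were MCM4 (0.97), MCM2 (0.79), MCM6 (0.56), ORC6 (0.51), MCM5 (0.49), CDC6 (0.47), MCM7 (0.44), CDT1 (0.40), ORC1 (0.32) and MCM3 (0.32). Of helicase activation they were GINS4 (0.85), GINS2 (0.76), MCM10 (0.51) and CDC45 (0.21), of the polymerases and primase POLA1 (0.71), PRIM1 (0.59), POLE (0.58) and POLD1 (0.48), and of the clamp and loader PCNA (0.69), RFC3 (0.64), RFC4 (0.38), RFC5 (0.31) and RFC2 (0.31). The others were RPA3 (0.33), LIG1 (0.26), E2F2 (0.29), UHRF1 (0.65) and TK1 (0.30). Over all tested genes 16.0% had a called difference in this direction. No group had 4 or more libraries, so the values of single libraries were not screened gene by gene for outliers. Whole libraries were compared within groups by chi-square, and each library was left out in turn.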

How the results depend on the processing

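The counts of members called lower or higher in each comparison stayed within 1.5 times their main value under all alternatives run, except that the members lower in KP4 than in MiaPaca2 under trametinib went from 1 to 2 with the strict filter and with only the libraries compared (CDT1 was added, at -0.15 and -0.14). Leaving out single libraries gave 38 to 40 members lower in KP4, 40 in MiaPaca2, 25 to 31 with a larger fall in MiaPaca2, 19 to 21 lower and 9 to 11 higher in KP4 DMSO, and 26 to 30 higher in KP4 trametinib. Signs turned only for values near 0 that were not called: POLA2 in MiaPaca2 (-0.16 to 0.0371 over the left-out libraries), and the differences of POLA2 (0.0033 with RLE scaling, 0.0066 with DESeq2, -0.16 to 0.0688 over left-out libraries), CLSPN (0.0426 with RLE scaling, 0.0031 with no filter, 0.042 with DESeq2, -0.0445 to 0.071), POLD3 (-0.0022 to 0.0848), FEN1 (-0.029 to 0.0724) and E2F1 (-0.0037 to 0.11). The cause was not tested. Some calls near the threshold were lost with other settings, besides those given for MCM4 and E2F2 under trametinib. The RPA3 difference of the responses was lost with library size only (adjusted p = 0.0544) and the strict filter (0.0549). It was also lost with limma-voom (0.072) and no robust shrinkage (0.0535). The CDC45 difference was lost with no filter (0.0589) and that of E2F2 with a replicate block (0.0533). In DMSO, calls of CDC25A and POLD3 were lost, as given above. Deviations of same-numbered libraries correlated at -0.024 to 0.021, so no shared effect of the replicate number was seen. This cannot show whether the samples were paired in the experiment. With a replicate block, 39 members were called lower in KP4, 40 lower in MiaPaca2 and 27 with a larger fall in MiaPaca2. Between the lines, the block gave 20 lower and 10 higher in KP4 DMSO, and 26 higher in KP4 trametinib.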
